A study of Homo sapiens with 8 samples.

Results

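The genes that license, unwind and copy the chromosomes in S phase, many of them activated by E2F transcription factors, were followed as a list of 50 named members through RNA-seq libraries of HCT-116, a human colorectal cancer cell line. The members were found by symbol in a deposited table of 20030 rows, and all 50 were among the 10677 genes tested, those that reached 1 FPKM in 2 or more libraries. FPKM is the number of fragments of a gene per kilobase of transcript and scaled to the total of the library's fragments, so that levels can be set side by side between genes. The study knocked down the homeobox factor *HHEX*, the coactivators *YAP1* and *WWTR1* (TAZ) or the TEAD factors to find the genes that they control together. Every cell population carried siRNA. A control siRNA (siNC) was used in 2 libraries, siRNA against *HHEX* in 3 (siHHEX 1, 2 and 3, a different siRNA in each), siRNA pairs against *YAP1* and *WWTR1* in 2 (siYAP/TAZ 1 and 2, again with different siRNAs), and a mixture of an siRNA shared by *TEAD1*, *TEAD3* and *TEAD4* with one against *TEAD2* in 1 (siTEAD1/2/3/4). This is 1 cell line after transient knockdown, and no label says that the libraries of a group came from independent experiments. The sample record of siHHEX 3 was numbered apart from those of the other libraries, and no label says whether it was handled together with them. The p-values measure the spread between these libraries, which in siHHEX and siYAP/TAZ includes any difference between siRNAs and in siNC may be technical. The deposited values summed to between 331662.7 and 383422.6 FPKM per library. Their number of reads is not known, but the spacing of the lowest values put the depth of each library between 0.95 and 1.078 times that of siNC 1.

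Before S phase, the origin recognition complex, CDC6 and CDT1 load the ring of MCM helicase subunits onto DNA, and geminin (*GMNN*) holds CDT1 back once replication has begun. In S phase, CDC45 and the GINS complex turn the ring into the active helicase, polymerase alpha with its primase lays down primers, the RFC clamp loader places PCNA, and polymerases delta and epsilon copy the strands. Cyclin D with CDK4 or CDK6 phosphorylates RB and frees E2F1 and E2F2, which activate many of these genes, while E2F8 represses them. YAP and TAZ act mainly through TEAD factors and are known to drive the growth of colorectal cancer cells.

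Words of the E2F motif were in the promoters of most members with a known promoter window, and they are shown here because the list is named for this family. RefSeq promoter windows (GRCh38.p14, from 250 bases before to 50 after the annotated start) were matched by symbol for 43 of the 50 members. The words TTTCGCGC, TTTGGCGC or TTTCCCGC, searched on both strands, were found in 23 of these 43 (53.5%), against 5.95% of the 8517 tested genes with a window and 3.3% of all 27305 genes in the table. A gene was counted when any of its windows held a word, and TTTCGCGC and TTTGGCGC can overlap on opposite strands, as in *MCM6*. The share was 32.5% among 40 other replication genes and 9.68% among 31 mitotic genes. CCAAT, the word of the factor NF-Y, was in 62.8% of the members, 43.5% of the tested genes and 87.1% of the mitotic genes. GGAATG, the core word of the TEAD factors, was in 16.3% of the members and 14.5% of the tested genes. Their words begin between position -86 (*MCM6*) and position 8 (*CDC6*) relative to the RefSeq start in the following windows of 26 bases. For *GINS1* and *UHRF1* this start lies inside the GENCODE span of the gene given below. The windows are printed on the strand of the gene with the E2F word in capitals, and belong to members that changed in a knockdown.
*CDC6* (chr17:40287877-40287902, plus strand): ccattcggaTTTGGCGCgagcgcggc
*MCM6* (chr2:135876513-135876538, minus strand): tcaggtttgGCGCGAAAtctccagct
*RFC3* (chr13:33818085-33818110, plus strand): ttggagctcGCGGGAAAacttgtctc
*POLE2* (chr14:49688203-49688228, minus strand): gcggcggtgGCGCCAAAtcgcaaata
*UHRF1* (chr19:4909478-4909503, plus strand): cgagttttcGCGGGAAAaaaatcaga
*CLSPN* (chr1:35769967-35769992, minus strand): tctggctggGCGGGAAAgcaagaaca
*POLA2* (chr11:65261900-65261925, plus strand): ggctcccggTTTCGCGCatgcgtgca
*E2F1* (chr20:33686389-33686414, minus strand): caaaaaggaTTTGGCGCgtaaaagtg
*GINS1* (chr20:25407669-25407694, plus strand): ctttgttcgGCGCCAAAgcgcggagc
Among the members with a window, the word was in 6 of the 9 that fell in siHHEX and in 2 of the 5 that rose there, so that genes of both directions held it. A match describes the sequence and does not show that E2F bound there.

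The knocked down genes were read first. *HHEX* was at 8.6 and 9.06 FPKM in siNC 1 and 2 and at 3.25, 3.54 and 1.85 FPKM in siHHEX 1, 2 and 3, with no overlap. *WWTR1* was at 6.80 and 6.72 FPKM in siNC and at 2.64 and 2.58 FPKM in siYAP/TAZ, and *YAP1* was at 20.2 and 19.7 FPKM in siNC and at 6.90 and 8.39 FPKM in siYAP/TAZ. *YAP1* was also low in siHHEX 1 and 3, at 5.77 and 6.93 FPKM, but not in siHHEX 2, at 17.4 FPKM. By limma it was called lower in siHHEX as deposited (adjusted p = 0.0429) and not after correction (adjusted p = 0.161). Other genes that the study targeted moved as well. *TEAD1* was at 18.3 and 19.04 FPKM in siNC and at 6.99, 10.2 and 5.30 FPKM in siHHEX (log2 fold change -1.25, adjusted p = 0.00642, and 0.0186 after correction for GC content and length), *TEAD2* was higher in siHHEX (0.78, adjusted p = 0.00709, and 0.0734 after correction), and *TEAD4* was at 20.3 and 21.3 FPKM in siNC and at 12.5 and 13.6 FPKM in siYAP/TAZ (-0.64, adjusted p = 0.0250). In siHHEX *TEAD4* was not called as deposited (-0.11, adjusted p = 0.503), but was called lower after correction (-0.50, adjusted p = 0.0312). In the library labelled siTEAD1/2/3/4, *TEAD1*, *TEAD2* and *TEAD4* were below both siNC libraries, at 9.02, 2.73 and 5.56 FPKM. *TEAD3*, at 9.08 FPKM against 7.36 and 6.99 FPKM in siNC, went against the label. That library is called siTEAD1/2/3/4 by its label only. Markers of an epithelial colorectal line were abundant, with *KRT8*, a keratin, at 1591 and 1707 FPKM in siNC, and 7 of the 10 markers on the list were tested. *VIL1*, *CEACAM5* and *LGALS4*, which mark differentiated colon cells, were at most at 0.132 FPKM in any library. The summed level of the epithelial markers was 3375 and 3518 FPKM in siNC, 3120, 3446 and 3661 FPKM in siHHEX, 2033 and 1978 FPKM in siYAP/TAZ and 2718 FPKM in siTEAD1/2/3/4. The 6 leukocyte markers summed to at most 8.19 FPKM, most of it *CD68*, the 6 fibroblast markers to at most 2.80 FPKM, led by *COL1A1*, and the 3 endothelial markers to at most 0.0882 FPKM, led by *VWF*. None of the markers was at 0 in all libraries. The epithelial sum was lower and the leukocyte sum higher in siYAP/TAZ than in siNC. The keratins *KRT8*, *KRT18* and *KRT19* carried the epithelial sum, at 54.4%, 42.9% and 77.5% of the siNC mean in siYAP/TAZ, while *EPCAM* was at 90.7%, *CDX2* at 106.9%, *CDH1* at 130.7% and *KRT20* at 173.6%, and of these 7 *KRT8* and *KRT18* passed the test (adjusted p = 0.00227 and 0.000861). In siHHEX 3, which stands apart for *RRM2*, the leukocyte sum was 6.89 FPKM against 4.03 and 4.10 FPKM in siNC and 3.601 and 4.173 FPKM in siHHEX 1 and 2, and the fibroblast sum was 1.99 FPKM against 0.994 and 0.828 FPKM in siNC. The part of any of these in the results for the replication genes was not tested.

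Knockdown of *HHEX* changed 17 of the 50 replication genes, a share close to that of all tested genes, and 2 after correction for GC content and length. In such bulk libraries, fewer cells in S phase and less RNA per cell cannot be told apart. With limma on log2(FPKM + 1) and Benjamini-Hochberg adjustment over all tested genes at 0.05, 11 members fell (*CDC6*, *MCM6*, *MCM10*, *RFC3*, *RFC4*, *POLD3*, *POLE2*, *RRM1*, *UHRF1*, *CLSPN* and *E2F8*), 6 rose (*GINS4*, *POLA2*, *POLD1*, *POLD2*, *ASF1B* and *E2F1*) and 33 did not pass the test. No change was over 2-fold, and those of the called members ran from a log2 fold change of -0.71 for *RFC3*, a clamp loader subunit, to 0.84 for *E2F1*. The share of members called, 34%, was close to the share of all tested genes, 32.9%, of which 16.9% were lower and 16% higher. The median log2 fold change of the members was 0.025, beside -0.006 for all tested genes and 0.016 for the 7013 tested genes between the lowest mean level of a member over all libraries (*POLA1*, 4.10 FPKM) and the highest (*PCNA*, 295.0 FPKM). All siHHEX libraries were below both siNC libraries for 16 members, against 33.8% of tested genes, and above both for 18, against 33.1%. By the study's thresholds (more than 2-fold and p under 0.05, taken here as unadjusted because its methods do not say), limma called 0 members and 1.63% of the tested genes, 0.927% lower and 0.702% higher, and 13 members were lower and 10 higher at an unadjusted p under 0.05 alone. *RRM1*, *UHRF1* and *CLSPN* were called lower, and *E2F1*, *POLA2*, *POLD1* and *POLD2* higher, also with any 1 siHHEX library left out, whereas 3 and 4 members in all were lower without siHHEX 1 and without siHHEX 3, where the share of all tested genes fell too, to 9.08% and 11.5% lower. When siHHEX 2 was left out, 16 members were lower and 7 higher, beside 24.9% and 20.4% of all tested genes. With siNC 1 or siNC 2 left out, when the lone control was assumed to vary like the other groups, limma called 0 members (5 lower and 5 higher, and 10 lower and 3 higher, at an unadjusted p under 0.05) and only 19 and 27 of all tested genes.

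**Figure D1:**
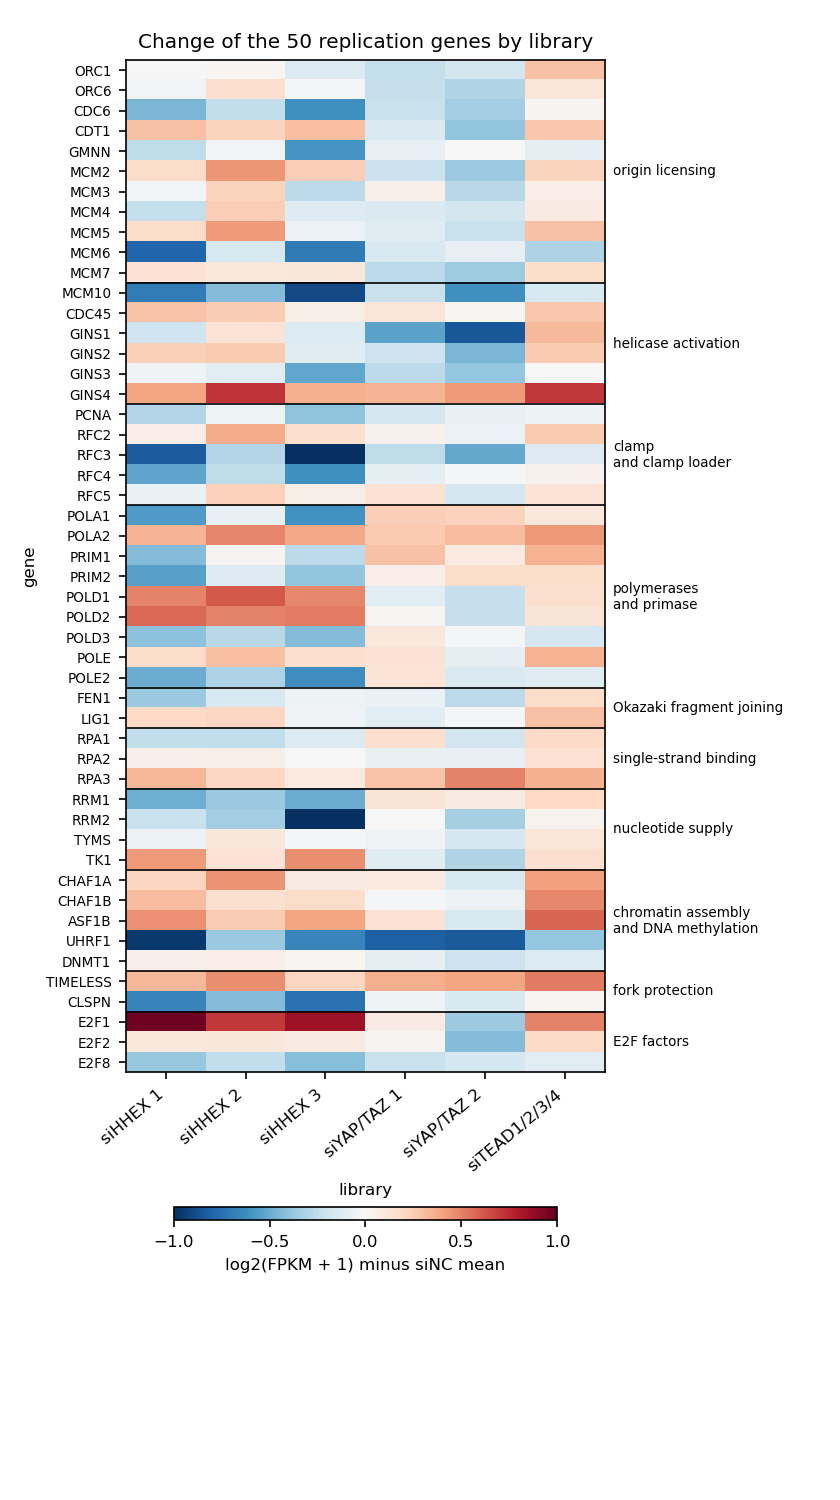
Difference of each knockdown library from the siNC mean in log2(FPKM + 1) for the 50 replication genes, 1 row per gene grouped by role and 1 column per library; the colours stop at 1 in either direction, which only *RRM2* in siHHEX 3 exceeded at -1.38. The siHHEX columns mix red and blue rows, the siYAP/TAZ columns are mostly pale blue and the siTEAD1/2/3/4 column is mostly pale red.

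Knockdown of *YAP1* and *WWTR1* lowered 2 of the 50 members, *GINS1*, a subunit of the active helicase, and *UHRF1*, which brings DNA methylation to newly copied DNA. With limma, no member rose (3 were higher and 5 lower at an unadjusted p under 0.05, which became 0 and 13 with each library shifted to the same median and 3 and 16 after correction for GC content and length). The share called, 4%, stood beside 8.28% of all tested genes, 2.13% lower and 6.15% higher. Most members, *GINS1* and *UHRF1* included, were below the control: 39 of 50 (78%) had a log2 fold change under 0, against 39.7% of all tested genes and 47.7% of those in the members' range of levels. The median was -0.11, beside 0.08 for all tested genes and 0.018 in that range. Both siYAP/TAZ libraries were below both siNC libraries for 25 members, against 24.8% of tested genes, and above both for 7, against 42.9%. The median of the members was -0.06 in siYAP/TAZ 1 and -0.17 in siYAP/TAZ 2, while the siNC libraries differed by a median of -0.04. With siNC 1, siNC 2 or siYAP/TAZ 2 left out, limma called 0 members (2 lower and 0 higher at an unadjusted p under 0.05 in each case) and 22, 15 and 92 of all tested genes, and without siYAP/TAZ 1 it called *GINS1* alone. When each library was shifted to the same median, the split of all calls went from 227 lower and 657 higher to 337 lower and 350 higher, or 6.43% of the genes in all (3.16% lower and 3.28% higher), and the members called were again *GINS1* and *UHRF1*. The study's criterion gave 0 members with limma and 1.57% of the genes (0.431% lower and 1.14% higher).

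**Figure D2:**
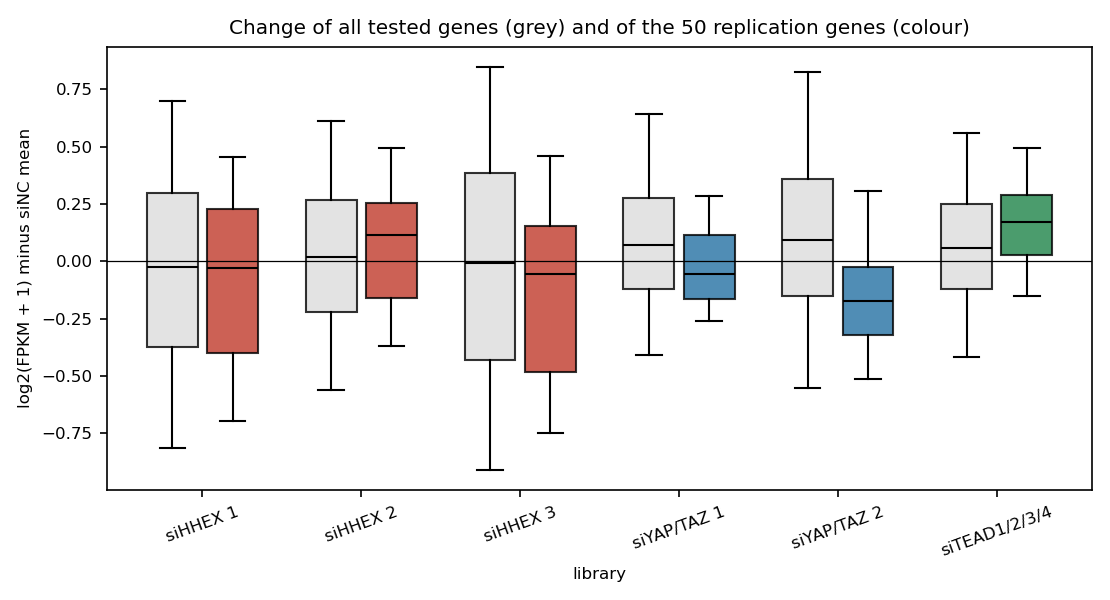
Change from the siNC mean in log2(FPKM + 1) in each knockdown library, for all 10677 tested genes (grey) and for the 50 replication genes (colour). Lines are medians, boxes are quartiles and whiskers run from the 5th to the 95th percentile; the coloured median is below the grey one in both siYAP/TAZ libraries, at -0.06 and -0.17 against 0.07 and 0.09, and above it in siTEAD1/2/3/4, at 0.17 against 0.06.

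Of the 11 genes of origin licensing, 2 fell in siHHEX and, by limma, 0 rose (2 higher at an unadjusted p under 0.05). In siYAP/TAZ 0 of the 11 were called (2 lower and 0 higher unadjusted), and all 11 had a log2 fold change under 0. *CDC6*, which loads the helicase onto the origin, was at 49.8 and 47.8 FPKM in siNC, 35.2, 41.1 and 31.6 FPKM in siHHEX, 41.6 and 38.2 FPKM in siYAP/TAZ and 49.7 FPKM in siTEAD1/2/3/4. All siHHEX libraries and both siYAP/TAZ libraries were below siNC, and the decrease in siHHEX passed the test (log2 fold change -0.44, standard error 0.13, adjusted p = 0.0324). *MCM6*, a subunit of the helicase ring, was at 57.6 and 55.2 FPKM in siNC, 32.2, 50.4 and 34.1 FPKM in siHHEX, 50.6 and 53.3 FPKM in siYAP/TAZ and 45.3 FPKM in siTEAD1/2/3/4. It fell in siHHEX (log2 fold change -0.55, standard error 0.18, adjusted p = 0.0406), with siHHEX 2 closest to the control. Other subunits of the same ring did not follow it. *MCM2* was at 67.7 and 70.5 FPKM in siNC, 78.6, 93.98 and 82.00 FPKM in siHHEX, 59.4 and 53.6 FPKM in siYAP/TAZ and 80.7 FPKM in siTEAD1/2/3/4. *MCM7* was at 140.0 and 145 FPKM in siNC, 158, 153 and 154 FPKM in siHHEX, 118 and 111 FPKM in siYAP/TAZ and 161 FPKM in siTEAD1/2/3/4. Both were above siNC in every siHHEX library and below it in both siYAP/TAZ libraries, and neither passed the test against siNC (adjusted p = 0.0815 and 0.325 in siHHEX, 0.181 and 0.08895 in siYAP/TAZ). *CDT1*, the partner of CDC6 in loading, was at 52.1 and 53.1 FPKM in siNC, 64.7, 61.7 and 64.9 FPKM in siHHEX, 47.6 and 39.7 FPKM in siYAP/TAZ and 63.5 FPKM in siTEAD1/2/3/4, with the same order of groups and an adjusted p of 0.0905 in siHHEX and 0.201 in siYAP/TAZ. *GMNN*, which holds CDT1 back, was at 18.1 and 16.5 FPKM in siNC, 14.3, 16.9 and 11.1 FPKM in siHHEX, 16.3 and 17.2 FPKM in siYAP/TAZ and 16.1 FPKM in siTEAD1/2/3/4, lowest in siHHEX 3 and within the range of siNC in siHHEX 2. The other members of this group, *ORC1*, *ORC6*, *MCM3*, *MCM4* and *MCM5*, had log2 fold changes from -0.04 (*ORC1*) to 0.18 (*MCM5*) in siHHEX and from -0.26 (*ORC6*) to -0.11 (*MCM3*) in siYAP/TAZ.

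The 6 genes that turn the loaded ring into a moving helicase held both a gene that fell in siYAP/TAZ and genes that moved in siHHEX. *GINS1*, on the plus strand of chromosome 20 from 25391008 to 25452700 in the GENCODE annotation of GRCh38, was at 22.3 and 22.5 FPKM in siNC, 19.3, 24.7 and 20.3 FPKM in siHHEX, 15.1 and 12.01 FPKM in siYAP/TAZ and 28.3 FPKM in siTEAD1/2/3/4. Both siYAP/TAZ libraries were below every other library, at 60.6% of the siNC mean (log2 fold change -0.69, standard error 0.16, adjusted p = 0.0343), while siHHEX lay on both sides of the control (log2 fold change -0.07). *GINS4*, another subunit of the same 4-part complex, went the other way. It was at 8.03 and 7.29 FPKM in siNC, 10.4, 13.2 and 10.1 FPKM in siHHEX, 9.97 and 10.7 FPKM in siYAP/TAZ and 13.1 FPKM in siTEAD1/2/3/4. Every knockdown library was above both siNC libraries, the increase passed the test in siHHEX (log2 fold change 0.49, standard error 0.14, adjusted p = 0.0303) but not in siYAP/TAZ (adjusted p = 0.149), and the highest values were in siHHEX 2 and siTEAD1/2/3/4. *MCM10*, a scaffold that helps start unwinding, was at 20.4 and 19.4 FPKM in siNC, 11.9, 14.5 and 10.2 FPKM in siHHEX, 16.9 and 12.6 FPKM in siYAP/TAZ and 17.8 FPKM in siTEAD1/2/3/4. It was below siNC in every knockdown library and fell in siHHEX (log2 fold change -0.68, standard error 0.17, adjusted p = 0.01803). *CDC45*, *GINS2* and *GINS3* had log2 fold changes of 0.20, 0.13 and -0.22 in siHHEX and 0.07, -0.33 and -0.32 in siYAP/TAZ, and none of these passed the test.

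Among the clamp and its 4 loader subunits on the list, *RFC3* and *RFC4* fell in siHHEX. *RFC3* was at 6.998 and 6.699 FPKM in siNC, 3.404, 5.41 and 2.93 FPKM in siHHEX, 5.59 and 4.497 FPKM in siYAP/TAZ and 6.16 FPKM in siTEAD1/2/3/4. It had the lowest siHHEX mean of the loader subunits and the lowest log2 fold change of all members there (-0.71, standard error 0.20, adjusted p = 0.0274), while siHHEX 2 stood nearer to siNC than the other siHHEX libraries. *RFC4* followed with a log2 fold change of -0.47 (adjusted p = 0.02795). *RFC2*, a subunit of the same loader, was at 38.7 and 38.7 FPKM in siNC, 40.7, 50.4 and 43.5 FPKM in siHHEX, 39.8 and 37.2 FPKM in siYAP/TAZ and 46.5 FPKM in siTEAD1/2/3/4, above siNC in all siHHEX libraries without passing the test (adjusted p = 0.212), and *RFC5* had a log2 fold change of 0.08. The clamp itself, *PCNA*, was the most abundant member, at 332 and 311 FPKM in siNC, 262, 311 and 242 FPKM in siHHEX, 286 and 305 FPKM in siYAP/TAZ and 310.4 FPKM in siTEAD1/2/3/4. siHHEX 2 lay between the siNC libraries and the other knockdown libraries lay below both, and neither comparison passed the test (adjusted p = 0.124 and 0.582).

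Of the 9 genes of the polymerases and primase, 3 rose and 2 fell in siHHEX. In polymerase delta, the catalytic subunit *POLD1* and the accessory subunit *POLD2* rose in siHHEX and the accessory subunit *POLD3* fell. *POLD1* was at 14.8 and 16.8 FPKM in siNC, 22.6, 24.7 and 22.4 FPKM in siHHEX, 14.5 and 13.3 FPKM in siYAP/TAZ and 17.7 FPKM in siTEAD1/2/3/4. The siHHEX mean was 147.1% of that of siNC (log2 fold change 0.53, standard error 0.12, adjusted p = 0.0136), and both siYAP/TAZ libraries were below siNC (adjusted p = 0.434). *POLD2* had log2 fold changes of 0.52 (adjusted p = 0.0112) and -0.11 in the 2 knockdowns, and *POLD3* of -0.37 (adjusted p = 0.0447) and 0.05. *POLE2*, an accessory subunit of polymerase epsilon, was at 11.1 and 10.2 FPKM in siNC, 7.27, 8.43 and 6.61 FPKM in siHHEX, 11.8 and 9.57 FPKM in siYAP/TAZ and 9.75 FPKM in siTEAD1/2/3/4. It fell in siHHEX (log2 fold change -0.48, standard error 0.14, adjusted p = 0.0339), and the siYAP/TAZ libraries lay on either side of siNC. *POLE*, its catalytic partner, changed by 0.22 on the log2 scale in siHHEX (adjusted p = 0.191). *POLA2*, the B subunit of polymerase alpha, was at 7.46 and 7.43 FPKM in siNC, 9.69, 10.8 and 10.02 FPKM in siHHEX, 9.13 and 9.45 FPKM in siYAP/TAZ and 10.4 FPKM in siTEAD1/2/3/4. Every knockdown library was above siNC, and the increase passed the test in siHHEX (log2 fold change 0.40, standard error 0.12, adjusted p = 0.0287) and not in siYAP/TAZ (adjusted p = 0.185). Its catalytic partner *POLA1* and the primase subunits *PRIM1* and *PRIM2* had log2 fold changes of -0.42, -0.22 and -0.36 in siHHEX and 0.24, 0.20 and 0.12 in siYAP/TAZ, and did not pass the test. In the annotation, exons of other coding genes on the same strand covered 25.4% of *PRIM1* and 12.4% of *POLD1*, so that a part of their fragments could have been assigned either way.

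None of the genes that join Okazaki fragments or bind single-stranded DNA passed the test with limma in either knockdown, and of these 5 only *RPA3* did at an unadjusted p under 0.05, in siYAP/TAZ. *FEN1*, the nuclease that trims the fragments, was at 115 and 108 FPKM in siNC, 85.8, 99.98 and 108 FPKM in siHHEX, 106 and 92.8 FPKM in siYAP/TAZ and 127 FPKM in siTEAD1/2/3/4. *LIG1*, the ligase that seals them, was at 20.4 and 21.2 FPKM in siNC, 24.01, 24.1 and 20.3 FPKM in siHHEX, 19.2 and 20.5 FPKM in siYAP/TAZ and 25.7 FPKM in siTEAD1/2/3/4. In siHHEX, neither gene had all libraries on one side of siNC. *RPA1*, the large subunit of the protein that coats single strands, was at 45.98 and 43.4 FPKM in siNC, 37.4, 37.5 and 40.6 FPKM in siHHEX, 50.3 and 39.3 FPKM in siYAP/TAZ and 51.2 FPKM in siTEAD1/2/3/4. *RPA2* was at 57.2 and 53.3 FPKM in siNC, 57.4, 57.6 and 55.02 FPKM in siHHEX, 52.5 and 51.99 FPKM in siYAP/TAZ and 61.5 FPKM in siTEAD1/2/3/4. *RPA3* was at 16.1 and 15.7 FPKM in siNC, 20.2, 18.5 and 16.99 FPKM in siHHEX, 19.5 and 22.8 FPKM in siYAP/TAZ and 20.6 FPKM in siTEAD1/2/3/4. The subunits of this trimer lay in different orders, with *RPA1* lower in all siHHEX libraries and *RPA3* higher in every knockdown library (log2 fold change 0.39, adjusted p = 0.107 in siYAP/TAZ).

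Of the 4 genes of nucleotide supply, *RRM1*, the large subunit of ribonucleotide reductase, fell in siHHEX. *RRM1* was at 51.6 and 49.5 FPKM in siNC, 35.8, 38.8 and 35.5 FPKM in siHHEX, 55.5 and 53.7 FPKM in siYAP/TAZ and 58.04 FPKM in siTEAD1/2/3/4, so that the siHHEX values were close together, all below siNC, and the siYAP/TAZ values above it (log2 fold change -0.45 in siHHEX, standard error 0.11, adjusted p = 0.0149). *RRM2*, the small subunit and an E2F target, was at 265 and 262 FPKM in siNC, 226, 207 and 101 FPKM in siHHEX, 262 and 209 FPKM in siYAP/TAZ and 269 FPKM in siTEAD1/2/3/4. The mean of *RRM2* in siHHEX was 67.6% of that of siNC, but siHHEX 3 alone was far below the rest, and the change did not pass the test (log2 fold change -0.65, standard error 0.29, adjusted p = 0.108). *TYMS*, the thymidylate synthase, was at 146 and 139 FPKM in siNC, 136, 154 and 141 FPKM in siHHEX, 139 and 126 FPKM in siYAP/TAZ and 155 FPKM in siTEAD1/2/3/4, and the groups overlapped in siHHEX. Exons of *ENOSF1* on the opposite strand cover 59.95% of the *TYMS* transcript, and the counting was not stated to use strand, so that their reads cannot be told apart. *TK1*, the thymidine kinase of the salvage route, was at 156 and 160.3 FPKM in siNC, 213, 175 and 218 FPKM in siHHEX, 146 and 128 FPKM in siYAP/TAZ and 178 FPKM in siTEAD1/2/3/4. It was higher in all siHHEX libraries (log2 fold change 0.34, adjusted p = 0.0547) and lower in both siYAP/TAZ libraries (log2 fold change -0.21, adjusted p = 0.333), neither past the threshold.

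Of the 5 genes of chromatin assembly and DNA methylation, *UHRF1* was lower in every knockdown library. This gene, on the plus strand of chromosome 19 from 4903080 to 4962154, was at 44.6 and 46.4 FPKM in siNC, 22.8, 35.02 and 28.4 FPKM in siHHEX, 25.4 and 24.9 FPKM in siYAP/TAZ and 34.5 FPKM in siTEAD1/2/3/4. No knockdown library reached the siNC values, and the means were 28.7 ± 6.12 FPKM (SD, n = 3) in siHHEX and 25.2 ± 0.351 FPKM (SD, n = 2) in siYAP/TAZ against 45.5 ± 1.24 FPKM (SD, n = 2) in siNC. *UHRF1* fell in siHHEX (log2 fold change -0.67, standard error 0.16, adjusted p = 0.0173) and also in siYAP/TAZ, where the log2 fold change was -0.83 with a standard error of 0.18 (adjusted p = 0.0276), and these comparisons share the siNC libraries. *DNMT1*, the maintenance methyltransferase that UHRF1 brings to DNA, did not follow, with log2 fold changes of 0.04 in siHHEX and -0.15 in siYAP/TAZ (adjusted p = 0.755 and 0.446). *ASF1B*, a histone chaperone of S phase, was at 74.6 and 70.3 FPKM in siNC, 99.5, 86.6 and 95.7 FPKM in siHHEX, 80.3 and 64.8 FPKM in siYAP/TAZ and 109 FPKM in siTEAD1/2/3/4. All siHHEX libraries were above siNC (log2 fold change 0.37, standard error 0.12, adjusted p = 0.0473), siYAP/TAZ lay on either side, and siTEAD1/2/3/4 was the highest. *CHAF1A* and *CHAF1B*, subunits of the factor that deposits histones behind the fork, had log2 fold changes of 0.25 and 0.22 in siHHEX and did not pass the test.

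The members that protect the fork differed from each other. *CLSPN*, which carries the checkpoint signal from a stalled fork, was at 9.03 and 9.34 FPKM in siNC, 5.41, 6.53 and 5.06 FPKM in siHHEX, 8.88 and 8.17 FPKM in siYAP/TAZ and 9.35 FPKM in siTEAD1/2/3/4. Every siHHEX library was below siNC (log2 fold change -0.62, standard error 0.13, adjusted p = 0.0119), while siTEAD1/2/3/4 was level with it. *TIMELESS*, a partner of claspin at the fork, was at 13.97 and 13.4 FPKM in siNC, 17.5, 19.2 and 15.99 FPKM in siHHEX, 17.9 and 18.3 FPKM in siYAP/TAZ and 20.02 FPKM in siTEAD1/2/3/4. All knockdown libraries were above siNC without passing the test (adjusted p = 0.0575 in siHHEX and 0.102 in siYAP/TAZ).

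The E2F factors on the list are an activator pair and a repressor. *E2F1*, on the minus strand of chromosome 20 from 33675477 to 33686385, was at 14.5 and 12.1 FPKM in siNC, 26.98, 22.2 and 24.6 FPKM in siHHEX, 14.1 and 10.03 FPKM in siYAP/TAZ and 19.03 FPKM in siTEAD1/2/3/4. The siHHEX libraries did not overlap with any other library, with a mean of 24.6 ± 2.38 FPKM (SD, n = 3), or 185.2% of the 13.3 ± 1.70 FPKM (SD, n = 2) in siNC, while siYAP/TAZ 1 lay between the siNC libraries and siYAP/TAZ 2 below them. It was the highest log2 fold change of all members in siHHEX (0.84, standard error 0.16, adjusted p = 0.00888). *E2F2*, the related activator, was at 9.12 and 9.27 FPKM in siNC, 9.95, 10.04 and 9.86 FPKM in siHHEX, 9.37 and 6.55 FPKM in siYAP/TAZ and 10.6 FPKM in siTEAD1/2/3/4, just above siNC in every siHHEX library (adjusted p = 0.594). *E2F8*, the repressor, was at 11.7 and 10.95 FPKM in siNC, 8.45, 9.37 and 8.13 FPKM in siHHEX, 9.57 and 9.88 FPKM in siYAP/TAZ and 10.4 FPKM in siTEAD1/2/3/4. It was below siNC in all knockdown libraries and fell in siHHEX (log2 fold change -0.35, standard error 0.12, adjusted p = 0.0486).

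**Figure D3:**
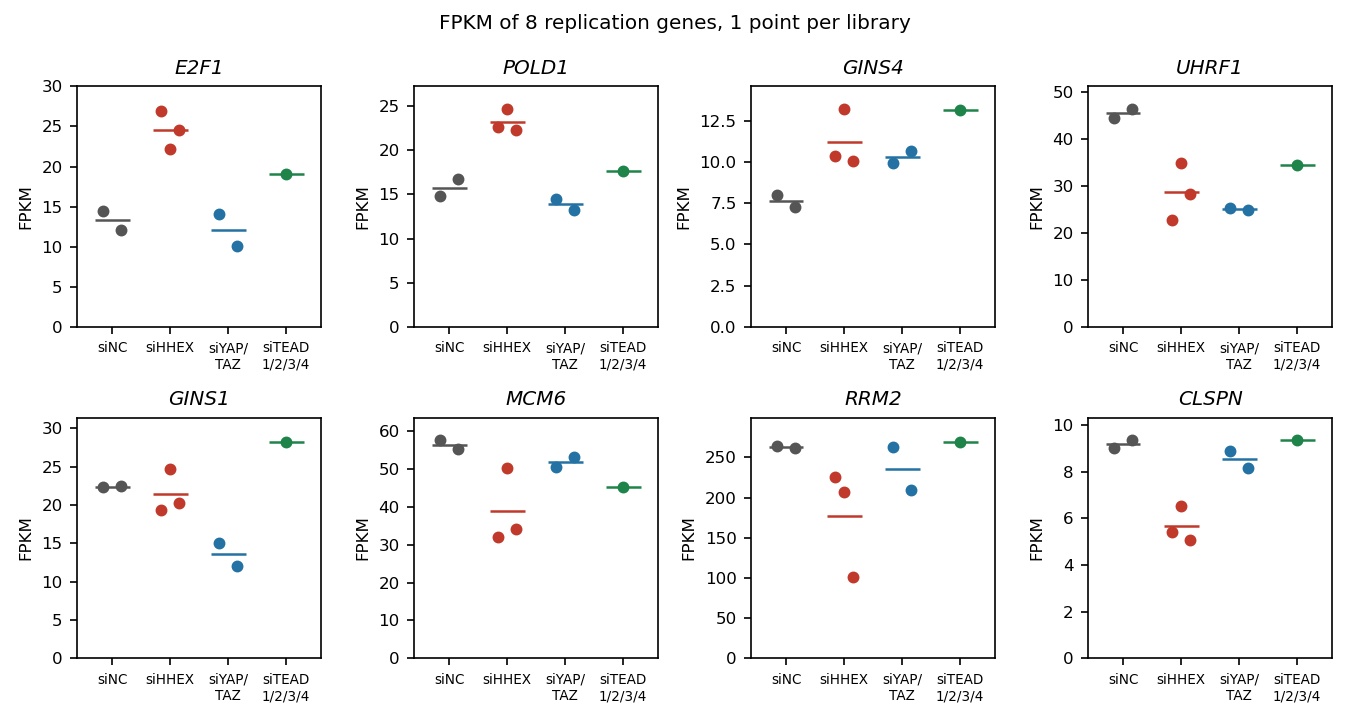
FPKM of 8 replication genes in each library (points) with the mean of each group (lines), from 0 upwards on a linear scale. The siHHEX points of *E2F1* and *POLD1* lie above every siNC point and those of *MCM6* and *CLSPN* below, *GINS1* is lowest in siYAP/TAZ, *UHRF1* is lower in every knockdown library, and 1 siHHEX point of *RRM2*, at 100.7 FPKM, lies apart.

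The direction of a member in siHHEX went with the base composition of its transcript. The 11 members that fell had a median GC content of 43.7%, from 38.0% (*RFC3*) to 55.8% (*UHRF1*), the 6 that rose had 57.9%, from 47.8% (*GINS4*) to 64.8% (*POLD1*), and the 33 others had 48.9%. The median was 48.2% over all members and 49.1% over the tested genes. Of the 17 members with the lowest GC content (38.0% to 44.7%), 9 fell and 0 rose with limma, a median log2 fold change of -0.42, and of the 2800 tested genes in this range 36.1% fell and 1.29% rose, a median of -0.35. Of the 16 members with the highest (53.7% to 64.8%), 1 fell and 5 rose, a median of 0.26, and among the 3277 tested genes there 1.34% fell and 33.8% rose, a median of 0.31. Across the 50 members, Spearman's rho between the change and GC content was 0.754, 0.674 and 0.764 in siHHEX 1, 2 and 3, beside 0.679, 0.599 and 0.756 across the 10349 tested genes with a known GC content, which share the libraries and are not independent replicates. It was -0.03 and -0.26 across the members in siYAP/TAZ 1 and 2, and 0.432 in siTEAD1/2/3/4.

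A smooth trend on transcript length and GC content, fitted over all genes, was then subtracted from each library. Among the members, Spearman's rho with GC content was afterwards 0.406, 0.233 and 0.101 in siHHEX 1, 2 and 3, so that part of the relation was left in the members. With this correction, 1 member fell in siHHEX, *UHRF1* (log2 fold change -0.85, adjusted p = 0.0232), 1 rose, *GINS4* (0.60, adjusted p = 0.0261), and 4% of the members were called, beside 6.78% of the 10349 genes (3.2% lower and 3.58% higher). Before correction, *UHRF1* had the highest GC content of those that fell and *GINS4* the lowest of those that rose. *E2F1* kept a positive change (0.50) that did not pass the test (adjusted p = 0.0864), and *RFC4* and *CLSPN* had -0.35 and -0.32 (adjusted p = 0.08198 and 0.0857). Of the genes given by library, the signs of *CDT1*, *MCM7*, *GINS1*, *LIG1*, *TYMS*, *TK1* and *E2F2* turned in siHHEX, and none of these was called there in either fit. In siYAP/TAZ, the corrected fit called *GINS1* (-0.77, adjusted p = 0.0152), *UHRF1* (-0.92, adjusted p = 0.0165) and also *MCM7* (-0.38, adjusted p = 0.0344), 6% of the members beside 11.4% of the genes (6.12% lower and 5.3% higher). The correction removes any change that follows GC content, whatever its source, and the source was not tested.

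**Figure D4:**
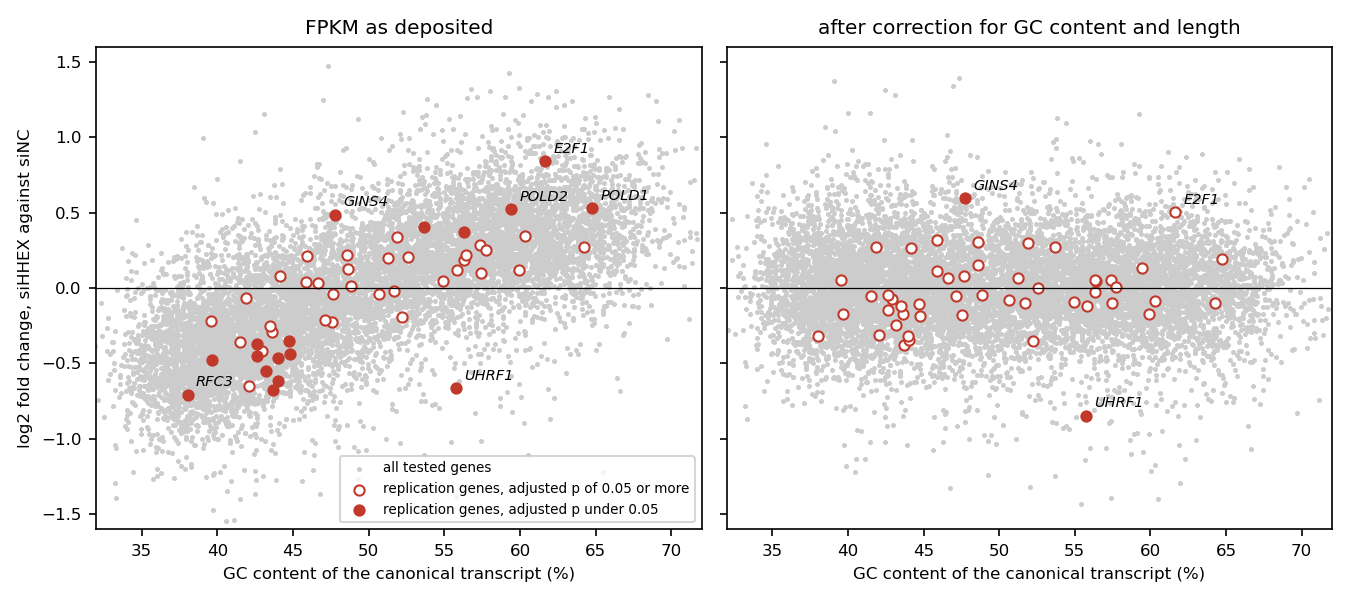
Log2 fold change in siHHEX against siNC by GC content of the canonical transcript, for tested genes (grey) and the 50 replication genes (red, filled where the adjusted p is under 0.05), with FPKM as deposited (left) and after correction for GC content and length (right); 24 and 26 tested genes lie outside the axes. The grey cloud rises from left to right as deposited and the red points follow it, and after correction *UHRF1* and *GINS4* are the filled points.

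Whether the knockdowns differed from each other was tested directly as siHHEX minus siYAP/TAZ, a contrast in which the control libraries cancel. Higher in siHHEX were 10 members, *CDT1*, *MCM2*, *MCM7*, *GINS1*, *GINS2*, *POLD1*, *POLD2*, *TK1*, *ASF1B* and *E2F1*. Lower in siHHEX were 7, *RFC4*, *POLA1*, *PRIM2*, *POLD3*, *POLE2*, *RRM1* and *CLSPN*. Together they are 34% of the members, beside 39.3% of the tested genes, of which 25.9% were lower and 13.5% higher. Among the members higher in siHHEX, *E2F1* differed most (log2 difference 0.98, standard error 0.16, adjusted p = 0.00484), followed by *POLD1* (0.70, standard error 0.12, adjusted p = 0.00521), *POLD2* (0.63) and *GINS1* (0.63, adjusted p = 0.0119). For *GINS1* the difference came from low values in siYAP/TAZ, and for *E2F1* from high values in siHHEX, as the values by library show. *POLA1* had the most negative difference (-0.66, standard error 0.17, adjusted p = 0.0166), with siHHEX below and siYAP/TAZ above siNC, and *RRM1* had the lowest adjusted p of those lower in siHHEX (-0.56, adjusted p = 0.00631). *UHRF1*, called in both knockdowns, had a difference of 0.16 (standard error 0.16, adjusted p = 0.437). After correction for GC content and length, 0 members were lower by limma (0 also at an unadjusted p under 0.05) and 6 were higher, *ORC6*, *GINS1*, *GINS2*, *POLD1*, *CHAF1B* and *E2F1*, beside 8.88% of the genes called in either direction (3.42% lower and 5.46% higher), and *GINS1* then had the highest difference (1.04, adjusted p = 0.0107). Without siYAP/TAZ 2, *RRM1* alone was lower and 3 members, *E2F1*, *POLD1* and *POLD2*, were higher, beside 5.79% and 3.82% of all tested genes. In the fits without siHHEX 1, siHHEX 3 and siYAP/TAZ 1, 2, 4 and 1 members were lower, beside 16.9%, 19.7% and 17.9% of all tested genes, and without siNC 1 or siNC 2, 3 were lower, beside 18.5% in each. The fit without siHHEX 2 went the other way, with 10 members lower and 9 higher, beside 31.9% and 16.4% of all tested genes. With each library shifted to the same median the calls over all genes went from 2763 lower and 1437 higher to 1841 lower and 2034 higher, or 36.3% of the genes (17.2% and 19.1%), and those of the members to 3 and 13. By the study's criterion limma called 0 members and 1.52% of the genes, 1.28% lower and 0.234% higher.

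**Figure D5:**
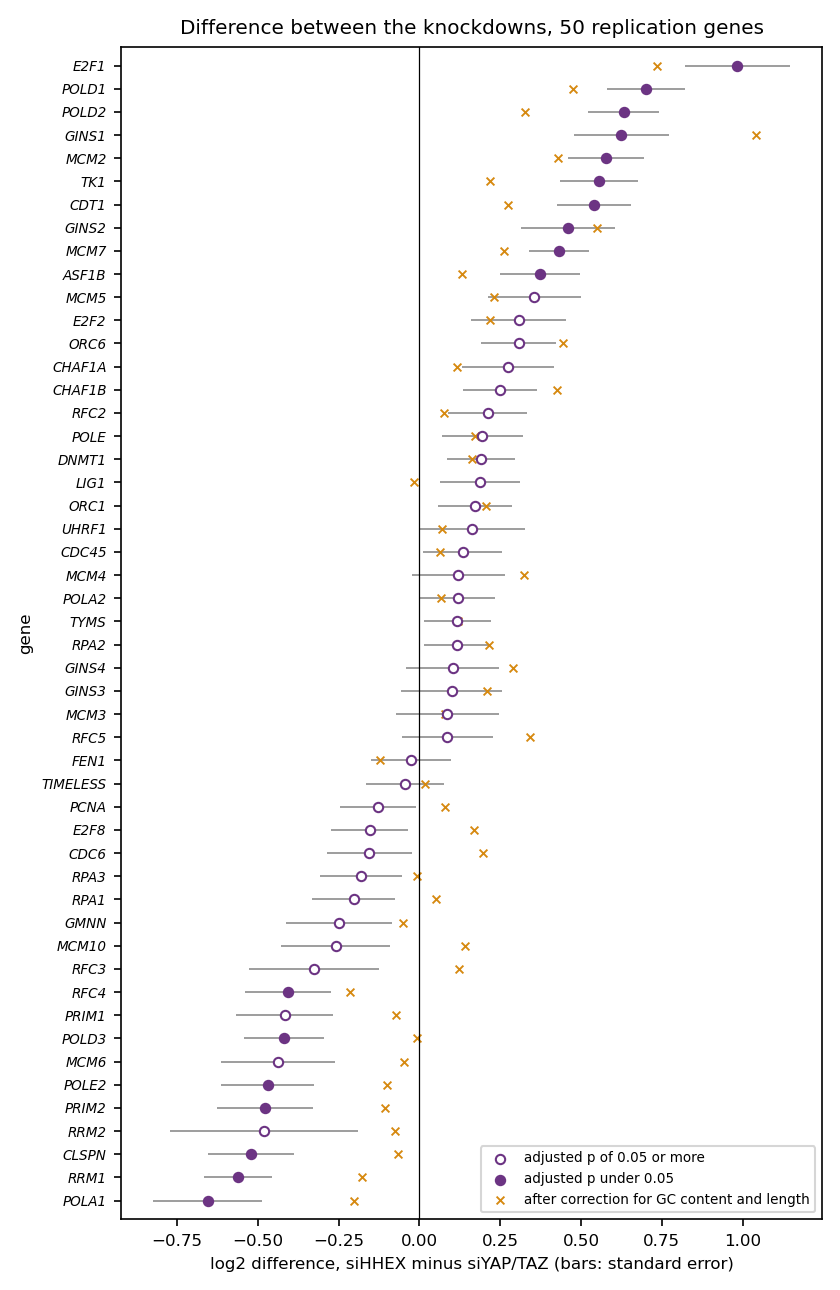
Log2 difference between siHHEX and siYAP/TAZ for each of the 50 replication genes in order of size, as deposited (circles with standard errors, filled where the adjusted p is under 0.05) and after correction for GC content and length (crosses). *E2F1* is at the top at 0.98 and *POLA1* at the bottom at -0.66 as deposited, and the corrected value of *GINS1*, 1.04, is the highest cross.

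The library labelled siTEAD1/2/3/4 has no replicate, and its values carry no test. The replication genes were mostly slightly above the control there: 40 of 50 (80%) lay above the siNC mean, against 58.9% of the tested genes, and the median difference was 0.17 beside 0.06. *GINS4*, at 171.6% of the siNC mean in FPKM, was past 1.5-fold on the log2(FPKM + 1) scale, as 4.15% of the tested genes were upwards, and 0 members were past it downwards, as 2.18% of the tested genes were. The next highest were *ASF1B*, with a difference of 0.58, *TIMELESS*, with 0.52, *E2F1*, with 0.49, and *CHAF1B*, with 0.48. With the correction for GC content and length, 1 member was past 1.5-fold upwards and 0 downwards, beside 2.14% and 2.64% of the genes. Against siNC 2 alone, without siNC 1, 3 members were past 1.5-fold upwards. *UHRF1* was the lowest, with a difference of -0.39, and *MCM6* followed with -0.31. *GINS1*, which fell in siYAP/TAZ, was at 126.2% of the siNC mean here.

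Lists of related genes that are not members were read in the same fit. Of 51 other replication genes, 18 fell and 5 rose in siHHEX (median log2 fold change -0.33, median GC content 42.1%). These are 45.1% of the list, beside 32.9% of all tested genes (16.9% lower and 16% higher). In siYAP/TAZ limma called 0 (4 lower and 5 higher at an unadjusted p under 0.05), beside 8.28% of all tested genes, and 4 lower and 2 higher (11.8%) after correction for GC content and length, beside 11.4%. *ATAD2*, a chromatin factor of S phase, was at 44.5 and 41.9 FPKM in siNC and at 17.2, 26.5 and 20.6 FPKM in siHHEX (log2 fold change -1.0, adjusted p = 0.00702). *RNASEH2C*, a subunit of the nuclease that removes RNA from DNA, was at 4.76 and 4.62 FPKM in siNC and at 9.29, 10.7 and 11.5 FPKM in siHHEX (log2 fold change 1.01, adjusted p = 0.00384). Like the members, the list held calls in both directions, and 10, 28 and 11 of the 51 fell without siHHEX 1, 2 and 3, beside 9.08%, 24.9% and 11.5% of all tested genes. Without siNC 1 or siNC 2, limma called 0 of the 51 lower (13 and 15 at an unadjusted p under 0.05), beside 0.0843% and 0.112% of all tested genes. After correction 1 of the 51 fell in siHHEX (*ATAD2*, -0.54, adjusted p = 0.0471) and 1 rose (*RNASEH2C*, 0.74, adjusted p = 0.0148). These are 3.92% of the list, beside 6.78% of the genes (3.2% lower and 3.58% higher).

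Among 33 regulators of the RB-E2F axis, 32 were tested (*CCND2* was not), and 10 fell and 2 rose in siHHEX, or 37.5% beside 32.9% of all tested genes. After correction for GC content and length, 2 were lower and 1 higher, or 9.38% of the list beside 6.78% of the genes (3.2% lower and 3.58% higher). In siYAP/TAZ, 1 fell and 1 rose, beside 2.13% and 6.15% of all tested genes, and after correction 6 were lower and 0 higher, beside 6.12% and 5.3%. *CCND1*, cyclin D1, was at 419.8 and 441.0 FPKM in siNC, at 119.3, 146.6 and 97.6 FPKM in siHHEX, at 159.3 and 100.5 FPKM in siYAP/TAZ and at 173.6 FPKM in siTEAD1/2/3/4. No knockdown library was near the control, and its log2 fold change was -1.84 for siHHEX (adjusted p = 0.00346) and -1.76 in siYAP/TAZ (adjusted p = 0.00612), and correction for GC content and length left them at -1.83 and -1.84. *CDK4*, a kinase partner of cyclin D1, rose in siHHEX (0.58, adjusted p = 0.00669), and *TFDP2*, a partner of the E2F factors, was the only one to rise in siYAP/TAZ (0.57, adjusted p = 0.0483, and 0.41, adjusted p = 0.0630, after correction). Of 38 mitotic genes, 16 fell and 1 rose in siHHEX (median -0.26), or 44.7% beside 32.9% of all tested genes, from *ECT2* at -1.08 (adjusted p = 0.00387) to *BIRC5* at 0.50 (adjusted p = 0.0111), and 5 fell and 0 rose in siYAP/TAZ, beside 2.13% and 6.15% of all tested genes (median -0.20, 11 lower and 1 higher at an unadjusted p under 0.05). After correction 4 were lower and 2 higher in siHHEX (15.8% of the list), beside 3.2% and 3.58% of the genes, with *ECT2* at -0.59 (adjusted p = 0.0174). In siYAP/TAZ 8 were then lower and 0 higher (21.1%), beside 6.12% and 5.3%. Of the 5 that fell in siYAP/TAZ as deposited, the mitotic kinase *PLK1* had the most negative change, at 99.1 and 108.5 FPKM in siNC and 62.7 and 52.1 FPKM in siYAP/TAZ (log2 fold change -0.85, adjusted p = 0.0100), and the cyclin *CCNB1* the least (-0.45, adjusted p = 0.0380). Leaving out siNC 1 or siNC 2 left 1 control library, and limma then called almost none of all tested genes in either knockdown. Calls of the RB-E2F regulators and mitotic genes can therefore not be read from those fits. Of the mitotic genes, 0 were lower in siYAP/TAZ by limma without siYAP/TAZ 2 (8 at an unadjusted p under 0.05), 2 without siYAP/TAZ 1 and 3 without siHHEX 1, beside 0.384%, 2.16% and 1.63% of all tested genes. Of the regulators 2, 6, 3 and 4 fell in siYAP/TAZ without siHHEX 1, 2, 3 and siYAP/TAZ 1, beside 1.63%, 3.46%, 3.16% and 2.16%.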

How the data were processed

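RNA of 8 HCT-116 libraries was sequenced on an Illumina HiSeq 2500. The submitters' processing notes name Trimmomatic 0.36, HISAT2 2.0.5, HTSeq 0.9.1 and Cufflinks 2.2.1, and the genome build and annotation are not given in the sources used here. The authors deposited FPKM per gene and library, normalized by transcript length and library size, so that no read counts, intervals for depth or count tests are given. Of 20030 rows, 3754 were at 0 in every library and 27 had been turned into dates and could not be read as genes.

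Values were taken as log2(FPKM + 1), for which a fold change understates that of low genes, and the 10677 genes that reached 1 FPKM in 2 or more libraries were tested. One limma model (version 3.58.1, R 4.3.3, mean-variance trend) was fitted to all 8 libraries, with Benjamini-Hochberg adjustment over all tested genes at 0.05. The study's own test works on read counts and could not be run on FPKM. The siTEAD1/2/3/4 library was read against the siNC mean, with 1.5-fold as the limit. Groups were taken from the labels. Tables and figures were made with Python 3.11.15, numpy 2.4.6, pandas 2.3.3 and matplotlib 3.10.9. The fit was also run on simulated data with independent normal noise. These held no trend with GC content and so could not show how such a trend affects the calls.

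Given by library were, in each role, the members with the lowest and the highest log2 fold change in each knockdown, every member of roles of 2 or 3 genes, and *E2F1*, *PCNA*, *MCM2*, *MCM7*, *CDC6*, *CDT1*, *RRM2*, *TYMS* and *TK1*. From the other lists, the lowest and highest called genes were given. The members and lists were chosen with earlier results of these data known. GC content and length came from the canonical transcripts of the GENCODE annotation (known for 96.9% of tested genes) and entered the correction as natural splines with 4 degrees of freedom on each. Other settings were a pseudocount of 0.1, no filter, median scaling, this correction, a fit of only the groups compared, a replicate block, the study's criterion and leaving out each library.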

Additional observations from a re-analysis of the deposited data

How the results depend on the processing

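The numbers of replication genes called depended on the processing. The cause of these changes was not tested. Counts are of genes called by limma, and where 1 library was left out it was one of the groups compared. Over all genes, the fit with no filter called 5.35% lower and 6.37% higher in siHHEX, 0.498% and 1.47% in siYAP/TAZ and 13.7% and 6.97% in their difference. The fit of only the groups compared called 16% and 15.6%, 5.05% and 11.4%, and 18.6% and 9.45%, so that its counts for siYAP/TAZ stand beside a higher share of all genes than the 2.13% and 6.15% of the fit of all libraries. In siHHEX, the 11 lower members became 2 with no filter, 1 with the GC and length correction and 0 by the study's criterion, and 0 to 16 with 1 library left out. The 6 higher became 1 with the correction and 0 by the criterion, and 0 to 7 with 1 library left out. In siYAP/TAZ, the 2 lower became 0 with no filter (7 at an unadjusted p under 0.05) and by the criterion, and 0 to 1 with 1 library left out, and 1 was higher (0 before) in a fit of only the groups compared. In siHHEX minus siYAP/TAZ, the 7 lower became 3 with no filter, with median scaling and in a fit of only the groups compared, and 0 with the correction and by the criterion, and 1 to 10 with 1 library left out. The 10 higher became 6 with the correction and 0 by the criterion, and 3 to 11 with 1 library left out. The members past 1.5-fold upwards in siTEAD1/2/3/4 went from 1 to 2 with a pseudocount of 0.1 and were 1 to 3 with 1 siNC library left out. The mean of the library medians went from -0.115 to -0.214 with median scaling in siYAP/TAZ, and from 0.173 to 0.111 with median scaling and 0.101 with the correction in siTEAD1/2/3/4.

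Of the other replication genes, 1 was lower and 1 higher in siHHEX with the correction, and 0 to 28 and 0 to 7 with 1 library left out. In siYAP/TAZ, 3 were lower with median scaling, and 4 were lower and 2 higher with the correction; leaving out 1 library gave 0 (at most 5 lower and 5 higher at an unadjusted p under 0.05). With no filter and with only the groups compared, both added for these lists after seeing the data, 9 were lower and 2 higher in siHHEX and 5 lower and 4 higher in siYAP/TAZ, respectively. Of the RB-E2F regulators, 2 were lower and 1 higher in siHHEX with the correction, and 1 to 11 and 0 to 4 with 1 library left out. In siYAP/TAZ, 3 were lower and 0 higher with median scaling and 6 lower and 0 higher with the correction, and 0 to 4 and 0 to 1 with 1 library left out. With no filter 6 were lower and 1 higher in siHHEX and 0 higher in siYAP/TAZ, and with only the groups compared 7 were lower and 2 higher in siYAP/TAZ. Of the mitotic genes, 4 were lower and 2 higher in siHHEX with the correction, and 0 to 19 and 0 to 3 with 1 library left out. In siYAP/TAZ, 8 were lower with the correction, and 0 to 2 with 1 library left out. With no filter 9 were lower in siHHEX and 2 in siYAP/TAZ, and with only the groups compared 11 were lower and 1 higher in siYAP/TAZ.

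The replicate numbers of the labels did not pair the libraries: the deviations of same-numbered libraries correlated at -0.0704 to 0.0215. Only siHHEX 3 had the number 3, so that a block on the number left it out of the siHHEX comparisons. With the number as a replicate block, 3 members were lower and 4 higher in siHHEX, beside 9.73% and 9.58% of all genes (19.3% called). In siYAP/TAZ 2 were lower and 0 higher, beside 2.36% and 7.3% (9.66%). In the difference 3 were lower and 10 higher, beside 18% and 9.49% (27.5%). With the block and the correction together, 0 members were called in siHHEX (4 lower and 8 higher at an unadjusted p under 0.05), beside 1.46% of all genes, and 0 were lower and 3 higher in the difference, beside 1.89%. Under the block, 10 of the 51 other replication genes were lower and 2 higher in siHHEX, beside 9.73% and 9.58% of all genes. In siYAP/TAZ 0 were lower and 3 higher, beside 2.36% and 7.3%. With the correction 0 were lower and 1 higher in siHHEX, beside 0.879% and 0.58%, and 2 lower and 3 higher in siYAP/TAZ, beside 4.48% and 4.51%. The RB-E2F regulators gave 10 lower and 1 higher in siHHEX under the block (34.4% of the list), beside 9.73% and 9.58% of all genes. In siYAP/TAZ they gave 2 lower and 0 higher, beside 2.36% and 7.3%. With the correction they gave 1 lower and 0 higher in siHHEX, beside 0.879% and 0.58%. In siYAP/TAZ they then gave 5 lower and 0 higher, beside 4.48% and 4.51% of all genes. The mitotic genes gave 0 in siHHEX (11 lower and 2 higher at an unadjusted p under 0.05) under the block with the correction. In siYAP/TAZ 9 of them (23.7%) were lower in this fit, beside 4.48% of all genes.

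Of 953 values of named genes under other settings, 28 had the other sign, none of a change past the test. In siHHEX, the log2 fold changes with the correction, and with the block and the correction, were -0.097 and -0.046 for *CDT1*, -0.120 and -0.080 for *MCM7*, 0.273 and 0.256 for *GINS1*, -0.174 and -0.048 for *LIG1*, -0.049 and -0.030 for *TYMS*, -0.083 and -0.081 for *TK1*, and -0.101 and -0.065 for *E2F2*. With 1 library left out, the siHHEX values ran from -0.169 to 0.0 for *GINS1*, from -0.013 to 0.086 for *RPA2* and from -0.038 to 0.052 for *TYMS* (-0.020 without siNC 2). In siYAP/TAZ they ran from -0.107 to 0.020 for *GMNN*, -0.056 to 0.040 for *RFC2*, -0.143 to 0.133 for *POLE2* (0.050 without siNC 1), -0.181 to 0.167 for *RPA1* (0.034), -0.158 to 0.148 for *ASF1B* (0.037), -0.367 to 0.084 for *E2F1* and -0.433 to 0.025 for *E2F2*, each highest without siYAP/TAZ 2 except *GMNN*. Precision is limited by 2 or 3 libraries a group and by the lack of read counts.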

Other observations

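Other genes around the RB-E2F axis, chosen here after their values were seen, fell in siHHEX by limma with FPKM as deposited. *CCNE2*, the cyclin E2 that acts at the start of S phase, was at 12.2 and 10.1 FPKM in siNC and at 4.61, 5.22 and 4.37 FPKM in siHHEX, with no overlap (log2 fold change -1.08, adjusted p = 0.00911). *CDK6*, a kinase partner of cyclin D, was at 9.49 and 10.6 FPKM in siNC and at 4.52, 5.04 and 2.02 FPKM in siHHEX (log2 fold change -1.24, adjusted p = 0.0107), lowest in siHHEX 3. *RB1*, the pocket protein that holds the E2F activators, was at 12.0 and 12.4 FPKM in siNC and at 6.62, 8.61 and 6.11 FPKM in siHHEX (log2 fold change -0.71, adjusted p = 0.0142). After correction for GC content and length none of these passed the test, with log2 fold changes of -0.62 for *CCNE2* (adjusted p = 0.123), -0.81 for *CDK6* (adjusted p = 0.0527) and -0.22 for *RB1* (adjusted p = 0.236). *CDKN2A*, which encodes an inhibitor of CDK4 and CDK6, was called higher as deposited (log2 fold change 0.48, adjusted p = 0.0366), but not after correction (0.020, adjusted p = 0.941). It was also not called with a replicate block, which left out siHHEX 3 (adjusted p = 0.0731). *MYC*, a growth regulator, was at 89.1 and 91.0 FPKM in siNC, 67.6 and 54.4 FPKM in siYAP/TAZ and 48.6 FPKM in siTEAD1/2/3/4, and its change in siYAP/TAZ did not pass the test as deposited (log2 fold change -0.56, adjusted p = 0.0545) but did once the trends on length and GC content were removed (-0.64, adjusted p = 0.0236). It was also called with median scaling and in a fit of only the groups compared, and not with a replicate block alone (adjusted p = 0.0696).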
